A study of Homo sapiens with 4 samples.

Results

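The nuclei described here were annotated by the authors as Progenitor 2, and those labelled G2M were set against those labelled G1 within each sample. Progenitor 2 held 3800 of the 14812 annotated nuclei, out of 25306 deposited. Of the 3800 nuclei, 711 carried the label G2M, 1818 the label G1 and 1271 the label S. All came from enteric ganglioids, a 3D culture that holds neurons of the gut's own nervous system beside progenitors, profiled by single-nucleus RNA sequencing (snRNA-seq). The ganglioids were differentiated from H9, an established human embryonic stem cell line, and the labels name no transgene or edited allele. The 2 control samples and the 2 samples given PP121 differed in that compound, which inhibits several receptor tyrosine kinases and was present at 2 µM between days 15 and 20. By the annotation, the first replicate of either group was taken on day 42 and the second on day 38. A sample column deposited with the nuclei names both PP121 files as GEO's labels do, but gives control replicate 1 as replicate 2 and control replicate 2 as replicate 1 of stage 2. Groups and replicate numbers follow GEO's labels and days follow the annotation of the same files, so which control sample is replicate 1 rests on the labels. Each sample pooled ganglioids of its own differentiation, so the sample and not the nucleus was the unit of every test. Control replicates 1 and 2 held 163 and 107 G2M nuclei of Progenitor 2, and PP121 replicates 1 and 2 held 225 and 216. The G1 nuclei of those 4 samples numbered 586, 344, 522 and 366.

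A dividing cell copies its DNA in S phase, prepares for division in G2 and separates its chromosomes in M phase. Cyclin B with CDK1 drives entry into mitosis, kinetochores tie the chromosomes to spindle microtubules, motor proteins of the kinesin family shape the spindle, and the cell is cut apart in cytokinesis. Neural progenitors pass through this cycle until they leave it to become neurons or glia, and G1 is the gap in which that choice is usually placed. The label G1 here has a narrower sense: it was given to nuclei in which neither an S score nor a G2M score was above 0, so resting nuclei carry it too.

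The label came from RNA levels and is not a separate measurement. The deposited S and G2M scores gave the deposited label in all 3800 nuclei under that rule, with the higher of the scores deciding between S and G2M. Scores made anew from the 97 genes of Seurat's phase lists correlated with the deposited G2M scores at 0.998 to 0.999 over the nuclei of a sample. The listed genes were therefore described without a test. Of these, 88 were measured well enough to be fitted, and 87 of the 88 were higher in G2M. The 51 fitted G2M genes had a median log2 difference of 3.74 and the 37 fitted S genes one of 1.18. CENPF, a kinetochore protein of late G2 and M, had the highest mean level in the G2M sums of all 88, at 523 CPM (counts scaled to a common library total), and UNG, a glycosylase that removes uracil from DNA, the lowest, at 4.53 CPM.

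The 2 genes that mark these nuclei are both on the phase lists. MKI67 encodes the Ki-67 protein that coats mitotic chromosomes, and at least 1 UMI (unique molecular identifier, a counted transcript) of it was found in 41.1% and 38.3% of G2M nuclei in control replicates 1 and 2. Under PP121 the shares were 44.4% and 40.3%, against 0.581% to 2.19% of G1 nuclei over the 4 samples. TOP2A, the topoisomerase that untangles DNA before chromosomes part, was found in 48.9% to 52.3% of G2M and 3.26% to 4.64% of G1 nuclei. In enteric neurons labelled G1, which do not divide, the shares were 0.761% to 1.80% for MKI67 and 3.02% to 6.89% for TOP2A, at a median of 7522 to 8512 UMIs per nucleus. The shares in G1 progenitors were thus close to those in these neurons. Among the markers of progenitors and glia, PAX3 stood at 638 to 781 CPM, VIM at 634 to 908 CPM and SOX5 at 768 to 1012 CPM in the G1 sums (CPM of raw totals, which are not divided by gene length), while SOX10, a factor of enteric neural crest and glia, reached only 7.74 to 11.7 CPM. RET, a receptor of enteric neuronal progenitors, was at no more than 1.71 CPM in any sum.

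The G2M label covered nuclei of very different mitotic content. The G2M score ran from just above 0 to 1.55, and 305 of the 711 G2M nuclei (42.9%) had a score under 0.05, while 287 (40.4%) were above 0.2. Just inside the limit, 95 G2M nuclei had a score of 0 to 0.01, and just outside it 120 G1 nuclei had a score of -0.01 to 0. A readout that the label did not use was taken from genes of mitotic entry, spindle, kinetochore and cytokinesis outside the phase lists, counted after each nucleus was thinned to 2000 UMIs. G1 nuclei held a mean of 1.61 to 1.87 UMIs of these genes in the 4 samples. G2M nuclei with a score under 0.05 held 1.53 to 2.07 UMIs, a range that overlaps that of G1. Within control replicates 1 and 2 they held 1.89 and 1.53 UMIs against 1.78 and 1.62 in G1. Within PP121 replicates 1 and 2 they held 2.07 and 1.98 against 1.87 and 1.61. G2M nuclei with a score above 0.4 held 23.6 to 26.5 UMIs, and S nuclei held 3.26 to 5.19. The mean over all G2M nuclei, 9.09 to 10.8 UMIs, was thus a mixture of nuclei near the G1 level and nuclei far above it.

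**Figure D1:**
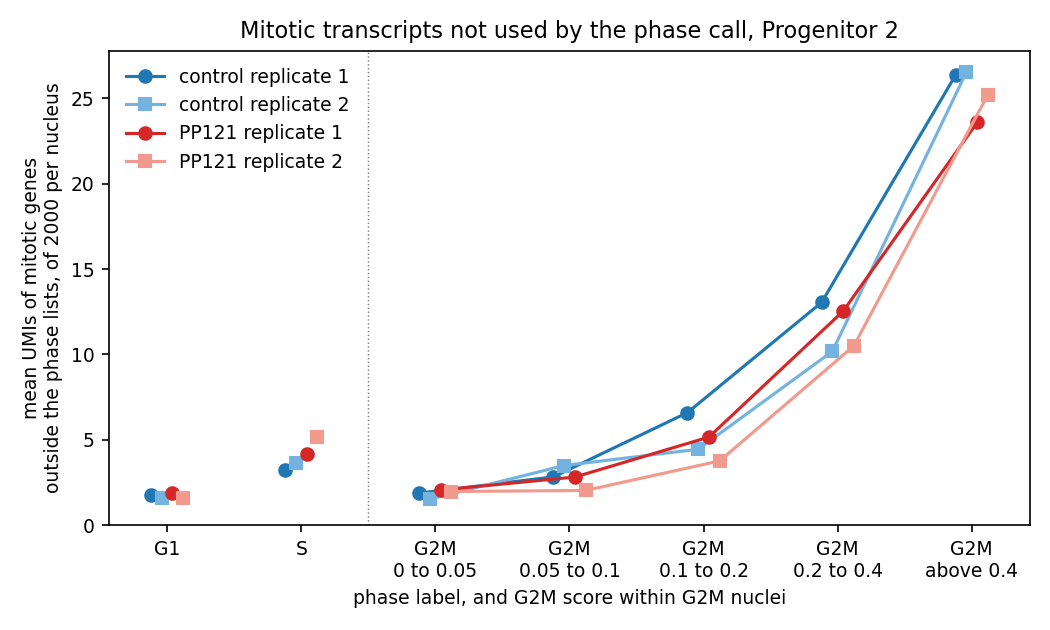
Mean UMIs per nucleus of mitotic genes outside the phase lists, of 2000 UMIs, for G1 and S nuclei and for G2M nuclei by their G2M score, with 1 point per sample. The lowest score class lies near the G1 level, at 1.53 to 2.07 against 1.61 to 1.87 UMIs, and the highest class reaches 23.6 to 26.5 UMIs.

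Counts were summed over the G2M and over the G1 nuclei of each sample, and edgeR's quasi-likelihood test was run on the 8 sums with the sample as a block. Outside the phase lists, 14443 genes were tested. At an adjusted p (Benjamini-Hochberg) under 0.05, 852 genes were higher in G2M (5.9% of those tested) and 612 were lower (4.24%), together 10.1%. The 4 G2M values lay entirely above the 4 G1 values for 870 genes (6.02%) and entirely below them for 485 (3.36%). The rises were far larger than the falls. The 12 largest rises among genes of at least 10 CPM ran from 6.16 to 8.69 on the log2 scale, and the 12 largest falls from -1.04 to -1.63. The counts depended on the fit: DESeq2 called 526 genes higher and 222 lower, and with the replicate number as the block in place of the sample 534 were higher and 101 lower. Without control replicate 1, 658 were higher and 368 lower.

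The genes with the largest rises were close to silent in G1. DIAPH3-AS1, an antisense transcript of DIAPH3, had 0 UMIs in all 4 G1 sums and 17.5 and 18.9 CPM in the G2M sums of the control samples, against 28.0 and 22.3 CPM under PP121. Against a limit of 3 counts over the 4 G1 sums it was at least 99.6-fold higher in G2M. PIF1, a DNA helicase, had 2 UMIs in all G1 sums together and 280 in G2M, a ratio of 349 with a 95% interval of 95.6 to 2893 that covers counting error only. KIF18B, a kinesin that acts on the plus ends of spindle microtubules, had 1.09, 0.38, 0.26 and 0.77 CPM in G1 and 122.8, 114.7, 126.8 and 119.7 CPM in G2M. Its 4 G2M values lay far above every G1 value (log2 fold change 7.42 ± 0.23 SE, adjusted p = 2.5e-18 by edgeR). DIAPH3, a formin that builds actin filaments, was the most abundant of the 12, at 3.07 to 5.77 CPM in G1 and 340 to 425 CPM in G2M. BUB1B, a kinase of the spindle checkpoint, stood at 0.65 to 2.31 CPM in G1 and 125 to 171.1 CPM in G2M. The other protein-coding genes of the 12 were KIF4A and KIFC1 (spindle motors), IQGAP3 (a scaffold of the cytoskeleton) and NEIL3 (a DNA glycosylase), and the rest were the RNAs AL591135.2, DIAPH3-AS2 and AC009623.1.

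**Figure D2:**
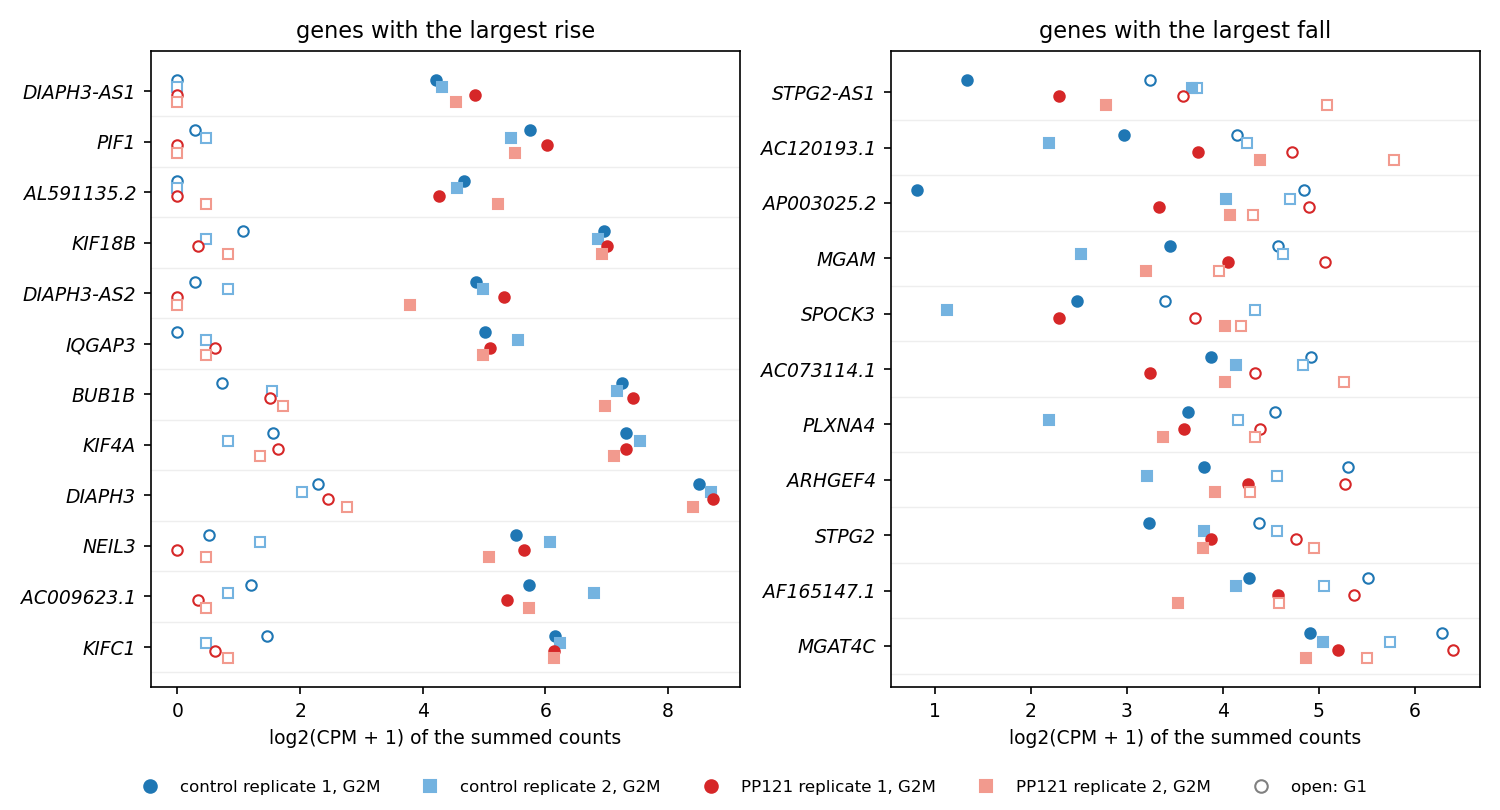
Level of the 12 genes that rose most and of 11 of the 12 that fell most, as log2(CPM + 1) of the summed counts, with filled symbols for G2M, open symbols for G1 and 1 symbol per sample. G1 and G2M do not overlap for any of the 12 rising genes, whereas 4 of the 11 falling genes overlap between samples although each was lower within all 4.

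Genes of every stage of division rose, although none of those counted here entered the phase call. Of the 93 genes on the 5 mitotic lists, 91 were measured, and 88 of the 91 were higher in G2M and 0 lower, against 5.9% of all genes tested. The genes measured are not all members, and many passed the filter on low counts through the G2M sums, where they are high, so the count is a description. At least 10 UMIs in every G1 sum were found for 49 of them, of which 46 were higher and 0 lower at a median of 2.06. The median log2 fold change of the 91 was 3.04, against -0.02 over all genes outside the phase lists. The spindle and kinesin list had all 20 of its genes higher, at a median of 4.71, and its most abundant member was ASPM, which organises spindle poles. ASPM stood at 10.4, 4.6, 7.86 and 8.46 CPM in G1 and at 372, 348, 407 and 304 CPM in G2M (5.47 ± 0.13, adjusted p = 1.7e-20 by edgeR). All 12 cytokinesis genes were higher, at a median of 3.95, among them CIT, the citron kinase of the cleavage furrow, at 3.84 to 5.5 CPM in G1 and 175 to 242 CPM in G2M. ARHGAP11A and its near-identical copy ARHGAP11B are both on that list, and their reads may be split between them.

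Mitotic entry and checkpoint genes were higher for 23 of 24, at a median of 2.75. CCNB1 encodes cyclin B1, the partner of CDK1, and had 3.26, 3.45, 1.83 and 1.54 CPM in G1 and 84.7, 43.8, 76.1 and 58.7 CPM in G2M (4.72 ± 0.23, adjusted p = 1.8e-14 by edgeR). PLK1, the polo kinase of mitosis, had 1.31 to 3.85 CPM in G1 and 21.3 to 28.6 CPM in G2M. The member that did not pass was CDC25B, a phosphatase that activates CDK1, at 4.99 to 10.4 CPM in G1 and 3.55 to 17.0 CPM in G2M. Of the 23 centromere and kinetochore genes 21 were higher, at a median of 2.64, led by KNL1, the kinetochore scaffold, at 3.04 to 5.77 CPM in G1 and 190 to 219 CPM in G2M. MIS12 and ZWILCH did not pass, with log2 differences of 0.18 ± 0.22 and 0.61 ± 0.21. All 12 condensin and cohesin genes were higher but by less, at a median of 1.05, and STAG1, a cohesin subunit that interphase nuclei also use, rose by only 0.47 ± 0.07 from a G1 level of 356 to 472 CPM.

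CENPU, PIMREG and JPT1 stand on Seurat's lists under older symbols that were not matched. They are already counted among the 91 mitotic genes, so their values are a description and not a further check. CENPU, a centromere protein, stood at 2.69 to 5.24 CPM in G1 and 28.6 to 50.4 CPM in G2M. PIMREG, a regulator of the metaphase to anaphase step, stood at 0.767 to 1.74 and 10.6 to 21.3 CPM. JPT1 rose from 74.4 to 90.8 CPM in G1 to 112 to 136 CPM in G2M, a log2 difference of 0.59 ± 0.10 (adjusted p = 0.00015 by edgeR). All 3 were higher in every sample without overlap, as were 6.02% of all genes tested.

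Promoters of late cell cycle genes are known for a short element called CHR, often with a CCAAT box before it, through which the genes are held off in G1. The letters TTTGAA of the CHR were searched on both strands in the 250 bases before the RefSeq start (build GRCh38.p14). They occurred in 25 of the 76 promoters found for the 93 mitotic genes (32.9%), in 16.5% of the 649 promoters of genes higher in G2M, and in 8.95% of the 10109 promoters of all genes tested. CCAAT occurred in 63.2%, 49.0% and 35.6% of the same sets, and the table's 27305 promoters held TTTGAA in 13.6% and CCAAT in 33.0%. The 411 promoters of genes lower in G2M held TTTGAA in 12.9%, also above all genes tested, and CCAAT in 28.2%. DNA replication genes held TTTGAA in 0 of 36. Letters of a motif are a description of these windows and not evidence of binding. The last 60 bases before the start are shown for the 5 mitotic genes with the largest rise that held TTTGAA there, on the chromosomes whose sequence is used here, with matches to TTTGAA or CCAAT on either strand in capitals, to show where in genes this low in G1 the letters lie.
BUB1B (chr15:40161009-40161068, plus strand): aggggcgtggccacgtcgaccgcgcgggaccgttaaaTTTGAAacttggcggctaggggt
KIF4A (chrX:70290044-70290103, plus strand): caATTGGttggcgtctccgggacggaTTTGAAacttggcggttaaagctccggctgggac
KIF15 (chr3:44761734-44761793, plus strand): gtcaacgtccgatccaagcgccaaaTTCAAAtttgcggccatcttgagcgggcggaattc
DEPDC1 (chr1:68497083-68497142, minus strand): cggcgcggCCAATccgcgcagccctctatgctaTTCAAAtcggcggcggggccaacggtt
KIF18A (chr11:28108157-28108216, minus strand): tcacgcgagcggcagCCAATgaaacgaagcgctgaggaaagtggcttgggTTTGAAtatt
In these windows TTTGAA, or TTCAAA on the other strand, began 10 to 35 bases before the start, and 3 of the 5 windows also held CCAAT or ATTGG. GENCODE 29 places the first start of BUB1B and of KIF4A inside these windows, upstream of the RefSeq start. The log2 rises of BUB1B and KIF4A were 6.54 and 6.52, and those of KIF15, DEPDC1 and KIF18A were 5.28, 5.10 and 5.00.

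DNA replication and repair genes were also higher, for 32 of 39 with 0 lower, at a median of 1.31. MCM10, which helps load and start the replication machinery, had 0 to 1.31 CPM in G1 and 15.3 to 26.7 CPM in G2M. BRCA2, a repair protein of broken DNA, had 3.93 to 9.56 CPM in G1 and 56.3 to 81.6 CPM in G2M (3.22 ± 0.19, adjusted p = 1.1e-12 by edgeR). PRIM2, a primase subunit and the most abundant member, had 115 to 136 CPM in G1 and 185 to 237 CPM in G2M. Among those that did not pass, RPA3 differed by -0.07 ± 0.12 and DUT by 0.37 ± 0.24. Histone and chromatin genes were higher for 12 of 13 at a median of 1.35, including EZH2, the H3K27 methyltransferase, at 145 to 184 CPM in G1 and 265 to 391 CPM in G2M. DNMT1, the maintenance DNA methyltransferase, did not pass (0.30 ± 0.13). Nuclear envelope genes were higher for 5 of 8, with LMNB1, a lamin of dividing cells, at 27.5 to 30.6 CPM in G1 and 72.2 to 121 CPM in G2M, while LMNA differed by 0.04 ± 0.10.

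The comparison with S nuclei, from the same samples and 12 sums, separated these lists. Of 15255 genes tested, 434 were higher in G2M than in S (2.84%) and 207 were lower (1.36%), together 4.2%. All 20 spindle and all 12 cytokinesis genes were higher in G2M than in S, at medians of 2.49 and 2.34 on the log2 scale. Only 2 of 41 DNA replication genes were higher and 1 was lower, at a median of -0.05, whereas 37 of the 41 were higher in S than in G1, at a median of 1.38, where 2.97% of all genes tested were higher and 1.08% lower (4.04% together). The contrasts share sums, so their values are set side by side only. The largest differences from S were PIF1 (5.72 ± 0.30), AC009623.1, CCNB1 (3.93 ± 0.24), KIF20A and KIF14 on the higher side. On the lower side were AC008571.2 (-1.78 ± 0.35), STPG2-AS1, XYLB, GRM8, a glutamate receptor, and SLC1A2, a glutamate transporter (-1.10 ± 0.32).

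Genes of cell cycle exit and of G1, kept on a single list, moved little. Of 19 such genes, 2 rose and 1 fell, at a median of 0.07, against a background of 5.9% higher and 4.24% lower. The count lies within a few genes of that background. RBL1, a pocket protein that binds E2F factors, rose from 42.1 to 55.0 CPM in G1 to 100 to 155 CPM in G2M (1.35 ± 0.12, adjusted p = 1.8e-09 by edgeR), and BTG2, an inhibitor of proliferation, rose by 0.41 ± 0.13 (adjusted p = 0.049). CDK6, a G1 kinase, fell by 0.40 on the log2 scale (SE 0.13, adjusted p = 0.046), with 78.3 to 106 CPM in G1 and 41.4 to 87.4 CPM in G2M, so the groups overlapped. RB1, the most abundant member, differed by 0.04 ± 0.07.

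Progenitor and neuronal genes differed by far less than mitotic genes. Of 16 progenitor and glia genes, HES5, HES1 and NES were higher and SOX5 and SOX6 were lower. The background for this and the following lists was again 5.9% higher and 4.24% lower, and counts from lists this short are given as a description. HES1, a target of Notch signalling, had 41.7, 26.9, 50.1 and 49.6 CPM in G1 and 55.7, 35.5, 83.9 and 63.4 CPM in G2M, higher within each sample but overlapping between samples. SOX6, a partner of SOX5, had 112 to 195 CPM in G1 and 91.5 to 152 CPM in G2M. VIM and PAX3, with SOX5 the most abundant of the list, differed by 0.11 ± 0.07 and -0.03 ± 0.07. Of 11 neurogenesis genes, EBF2 rose (2.18 ± 0.33) and EBF3 fell by 0.69 (SE 0.19), both transcription factors of 1 family. Of 15 enteric neuron genes, DCX, STMN2, GAP43 and INA were lower and 0 higher, at a median of -0.17. DCX, a microtubule protein of young neurons, had 125, 120, 109 and 156 CPM in G1 and 69.4, 82.8, 80.7 and 148 CPM in G2M. The 22 neuronal genes together summed to 1752 to 2053 CPM in G1 and 1461 to 1939 CPM in G2M, and were lower in G2M in 3 of 4 samples and higher in PP121 replicate 2, with none of the 22 at 0 in all sums. Mesenchymal genes summed to 42.4 to 94.96 CPM in G1 and 29.9 to 91.2 CPM in G2M, and epithelial genes to 28.4 to 41.9 and 26.1 to 37.6 CPM. None of the 5 and 2 genes measured from those lists passed the test.

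**Figure D3:**
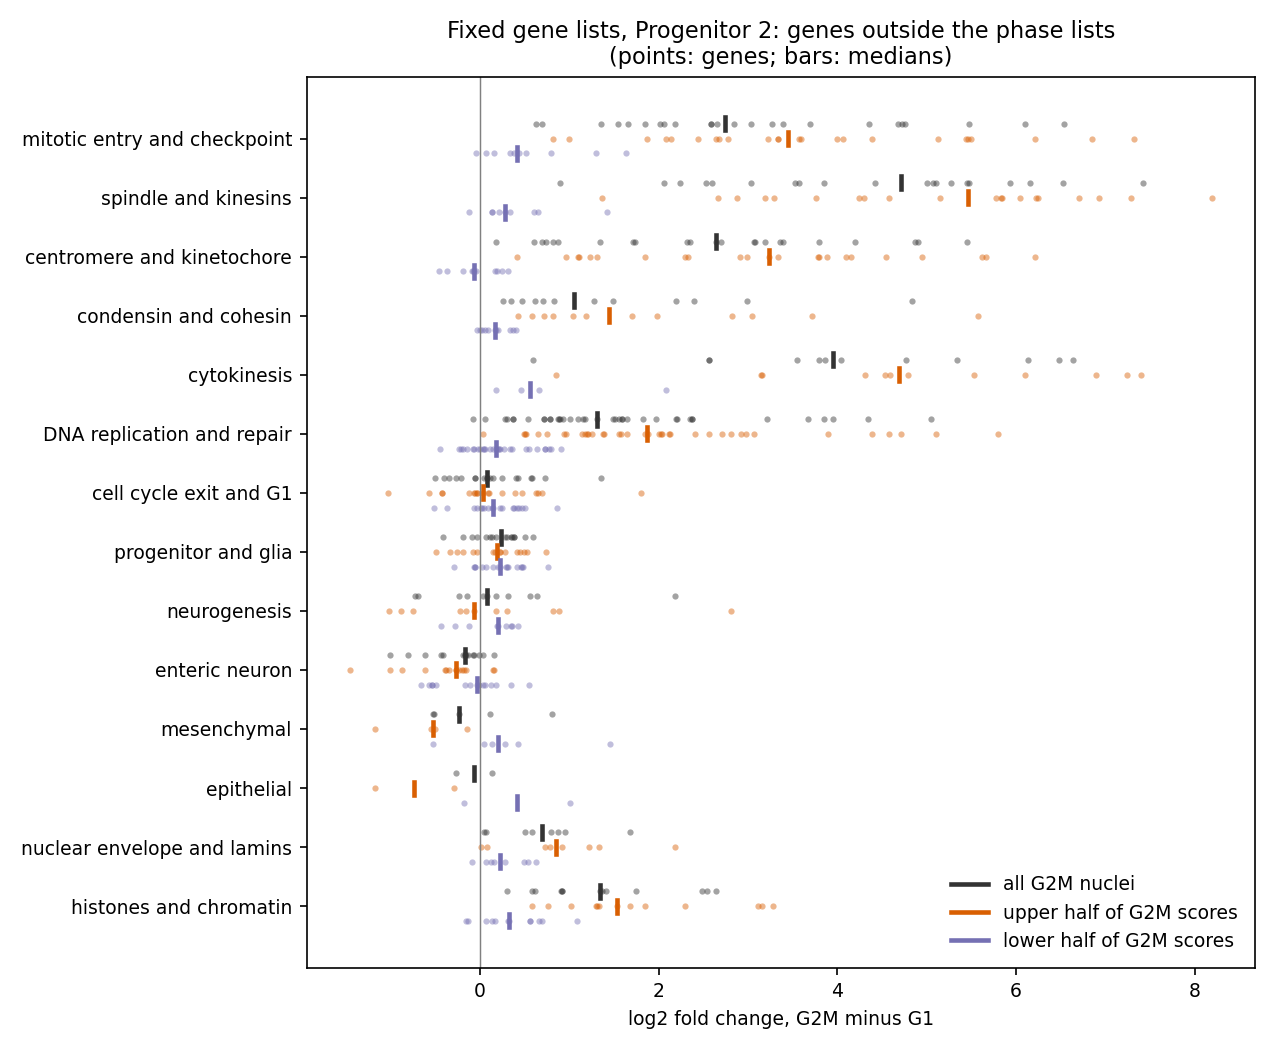
Log2 fold changes of the genes of 14 lists outside the phase lists, G2M minus G1, with points for genes and bars for medians, for all G2M nuclei and for those above and below the median G2M score of their sample. Below the median, the medians of the 5 mitotic lists lie between -0.06 and 0.56 over the 45 of 91 genes measured there, against 0.82 to 4.28 for the same genes with all G2M nuclei.

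G2M nuclei with low scores showed little of this. When only G2M nuclei with a score above the median G2M score of their sample were set against all G1 nuclei, 1187 genes were higher (8.67%) and 838 lower of 13697, and 89 of 91 mitotic genes were higher at a median of 3.71. With the nuclei below that median, 9 genes were higher (0.0672%) and 26 lower of 13394 (1110 at an unadjusted p under 0.05), and of the 45 mitotic genes measured 1 was higher, at a median of 0.19. The other 46 were too low to be fitted without the high-scoring nuclei. With all G2M nuclei the same 45 genes had 42 higher and a median of 1.85. That gene was DIAPH3 (2.08 ± 0.38, adjusted p = 0.0068 by edgeR). Among the other 8 that were higher, named after their values were seen, were COL6A2, H2AFZ, RPS29, HSP90AA1, H3F3B, HSP90AB1 and VIM. Among the 26 lower were MGAT4C (-1.58 ± 0.22) and MAGI2, both also lower in the whole comparison. The 2 sets differ in score by construction, and the difference between them was not tested.

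The genes that fell were mostly long. MGAT4C, of a glycosyltransferase family, had 77.1, 52.57, 83.36 and 44.24 CPM in G1 and 28.995, 31.9, 35.8 and 28.2 CPM in G2M, with every G2M value below every G1 value (-1.04 ± 0.15, adjusted p = 1.3e-05 by edgeR). With phases called anew from thinned UMIs of the listed genes, MGAT4C turned to 0.39, MGAM to 0.42 and AP003025.2 to 0.17. That call left only 20 and 19 G1 nuclei in control replicates 1 and 2, and 14 and 25 under PP121. The direction of these 3 genes was thus not kept, but the values rest on few counts in G1. PLXNA4, a receptor for semaphorins in axon guidance, had 16.89 to 22.37 CPM in G1 and 3.5 to 11.4 CPM in G2M. ARHGEF4, which activates small GTPases, had 18.46 to 38.44 and 8.3 to 18.2 CPM. MGAM, SPOCK3, STPG2, the RNAs STPG2-AS1, AC120193.1, AP003025.2 and AF165147.1, and AC073114.1, a pseudogene of 0.5 kb, were also among the 12. STPG2-AS1 lies antisense to STPG2, and the 2 cannot be told apart where strand was not used. In GENCODE 29 (GRCh38), MGAT4C spans 883.2 kb (chr12:85955666-86838904) and STPG2 959.1 kb (chr4:97184093-98143240). The lower genes with an annotated span had a median length of 188.6 kb, against 47.3 kb for the higher genes and 39.3 kb for all tested. Of 1485 genes over 200 kb, 18.1% were lower and 6.13% higher in G2M, while of 2050 genes up to 10 kb 0.439% were lower and 4.39% higher. Long genes also had higher counts here, with a median of 97.7 CPM over 200 kb against 10.3 CPM up to 10 kb, and the part of length and level in these calls was not tested. Among abundant fallers, chosen after their values were seen, were MAGI2, a synaptic scaffold, at 546 to 716 CPM in G1 and 292 to 380 CPM in G2M, and NEAT1, a nuclear long noncoding RNA, which fell by 0.43 on the log2 scale (SE 0.07).

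**Figure D4:**
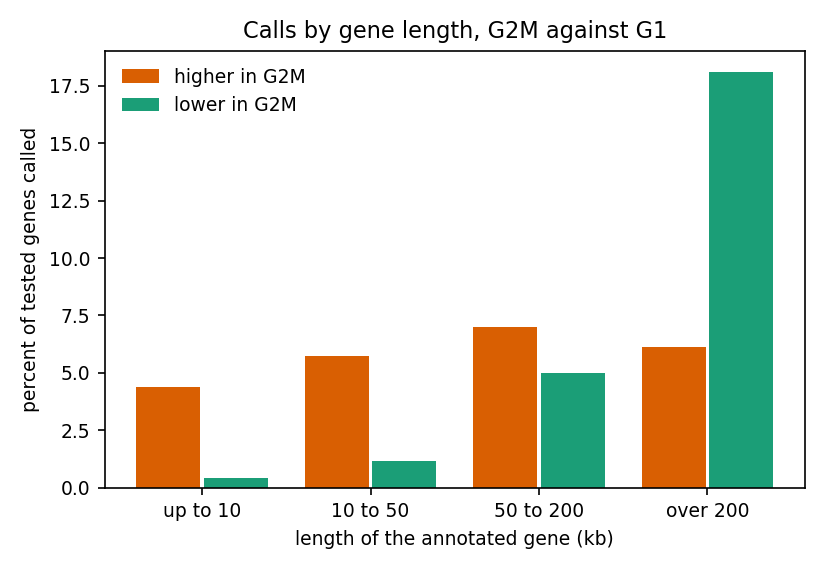
Percent of tested genes outside the phase lists called higher or lower in G2M than in G1, by the length of the gene in GENCODE 29. The share called lower is 0.439% up to 10 kb and 18.1% over 200 kb, while the share called higher stays between 4.39% and 7.01%.

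Some genes outside the phase, mitotic and replication lists rose beside a gene that is on one of them. Leaving out all genes of the phase, mitotic and replication lists, 714 higher genes had an annotated span, and 35 of them (4.90%) overlapped the span of a listed gene, against 0.667% of all such genes tested. Of the 35, 33 lay on the opposite strand. OGN, OMD, ASPN and ECM2 encode proteins of the extracellular matrix and all lie on the minus strand inside CENPP, a centromere gene on the plus strand (chr9:92325484-92620533). OGN had 11.5, 10.7, 24.1 and 6.92 CPM in G1 and 46.5, 62.7, 64.4 and 45.8 CPM in G2M. The 4 genes rose by 1.79 to 2.04 on the log2 scale, and CENPP by 1.73 ± 0.10. NOSTRIN, a regulator of nitric oxide synthase, overlaps SPC25 of the kinetochore on the opposite strand. It stood at 6.15 to 8.25 CPM in G1 and 99.2 to 130 CPM in G2M, and SPC25 at 2.1 to 5.0 and 104 to 155 CPM. These genes were named after their values were seen. Whether strand was used in counting is not stated, so their counts cannot be told apart from those of the gene they overlap, and the same holds for DIAPH3-AS1 and DIAPH3-AS2 inside DIAPH3.

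The difference between G2M and G1 was compared between treatments as the interaction of phase and PP121. Of 14443 genes, 0 passed in edgeR (620 at an unadjusted p under 0.05) and 0 in DESeq2. With phase by replicate number (the annotated day) added to the fit, 15 genes had a larger and 5 a smaller difference under PP121. The smallest p belonged to AC092958.4, NXPH1 and GPC5. NXPH1, a ligand of neurexins, had within-sample log2 differences of -2.65 and -2.27 in the control samples and 0.23 and 0.05 in the PP121 samples. Its adjusted p by edgeR was 0.0832. It was picked for its small p, so the lack of overlap between the groups is a description. The share of all genes without such overlap was not counted. The mitotic lists had 0 of 91 genes called and a median interaction of -0.03.

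Between the annotated days, 7 genes had a larger (0.0485%) and 4 a smaller difference in replicate 1 (0.0277%), together 0.0762% of the 14443 tested, with 896 at an unadjusted p under 0.05. DESeq2 called 0 and 1, while 44 and 15 were called with phase by treatment added to the fit and 45 and 15 without PP121 replicate 2. AL357507.1 was lower in G2M on day 42, by -0.44 and -0.32 in control and PP121, and higher on day 38, by 1.79 and 1.57. APOLD1, a gene with an apolipoprotein L domain, rose by 5.00 and 4.84 on day 42 and by 4.29 and 3.60 on day 38. Its levels were 18.9 to 49.2 CPM in G1 and 600 to 678 CPM in G2M. RPL39, RPL41 and TPT1, genes of the translation machinery or regulated with it, were called with a larger difference on day 42, as was AC092957.1, and 76 of the 78 ribosomal protein genes tested had a value above 0 at a median of 0.57. The median percent of ribosomal counts per nucleus was 0.966, 0.796, 0.977 and 0.939 in the 4 G2M groups and 0.919, 0.887, 0.954 and 1.02 in G1, and its part in that pattern was not tested. CNTN4, SLC35F4 and ADAMTSL1 completed the 4 with a smaller difference. Day and replicate number cannot be told apart.

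Progenitor 1, the other progenitor class, differed less between its phases in the mitotic genes. It held 912 G2M and 790 G1 nuclei, and MKI67 was found in 4.76% to 10.2% of its G2M nuclei. In the interaction of phase and class, 308 of 13759 genes had a larger difference in Progenitor 2 (2.24%) and 64 a smaller one (0.465%), together 2.7%. DESeq2 called 168 and 20, a fit with no filter on low counts called 183 smaller, and one with at least 10 counts in every sum 114. Leaving out PP121 replicate 1 left 142 larger and leaving out control replicate 1 left 22 smaller, and each of the 4 samples left out brought the larger ones to 204 or fewer. Within Progenitor 1 alone, 26 of 54 mitotic genes were higher in G2M at a median of 0.64, where 2.91% of 11422 genes were higher and 4.1% lower (7% together). Of 89 mitotic genes, 46 had a larger difference in Progenitor 2 and 0 a smaller one. The largest were PIF1 (5.54 ± 1.43), KIFC1 (5.09 ± 0.58), KIF18B, BUB1B and KIF4A. RAPGEF4-AS1, EDARADD, PDE7B, UBTD1 and AC120193.1 had the largest differences the other way, and UBTD1 was itself higher in G2M of Progenitor 1 by 1.91 on the log2 scale. UMIs of mitotic genes outside the phase lists averaged 2.67 to 4.09 of 2000 in G2M nuclei of Progenitor 1. Among G2M nuclei with at least 2000 UMIs, the scores were mixed differently in the 2 classes. Above 0.4 were 8 to 16 of 165 to 344 nuclei per sample in Progenitor 1. In Progenitor 2 they were 34 to 67 of 107 to 224. The part of this mix in the class difference was not tested. In nuclei of Progenitor 1 with a score above 0.4 the mean was 10.6 to 16.4, below the 23.6 to 26.5 of Progenitor 2. Scores above 0.4 have no upper limit and were not matched between the classes. From 0.2 to 0.4 the means were 5.3 to 8.94 in Progenitor 1 and 10.2 to 13.0 in Progenitor 2. At lower scores they overlapped, with 1.95 to 5.21 and 3.77 to 6.6 from 0.1 to 0.2. Under 0.05 they were 1.94 to 2.48 and 1.53 to 2.07.

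The share of G2M nuclei in Progenitor 2 was 14.1% in control replicate 1 (95% exact binomial interval 12.2 to 16.3) and 15.7% in control replicate 2 (13.0 to 18.6). Under PP121 it was 20.3% in replicate 1 (18.0 to 22.8) and 25.3% in replicate 2 (22.4 to 28.3). These intervals cover counting error only and not the spread between differentiations. Both PP121 samples lay above both control samples, by 6.21 percentage points on day 42 and 9.60 on day 38, and the mean was 14.9% ± 1.10 (SD, n = 2) against 22.8% ± 3.49 (SD, n = 2). The exact two-sided permutation p was 0.333, the smallest that 2 against 2 samples can give. A second scoring, done separately for each treatment, brought the shares to 17.9% and 19.5% in control and 18.3% and 21.9% in PP121, which overlap. Whether the deposited scores were made per treatment or jointly is not given in the sources used here. It returned G2M for 97.5% and 97.2% of control G2M nuclei but for 86.2% and 84.3% of PP121 G2M nuclei. With the label set aside, nuclei with at least 5 UMIs of mitotic genes outside the lists, of 2000, were 15.7% and 17.4% of control and 21.5% and 22.2% of PP121 nuclei. Nuclei with a G2M score above 0.2 were 5.37%, 6.59%, 9.12% and 9.24% of the class. That score also sets the deposited label, so this limit is not a separate readout.

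**Figure D5:**
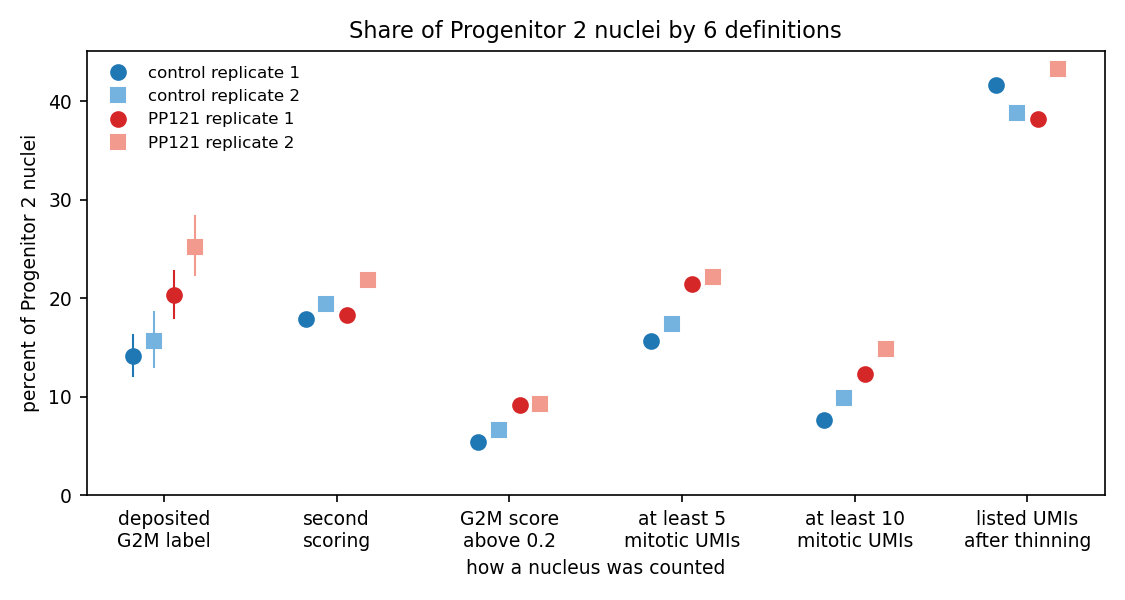
Percent of Progenitor 2 nuclei counted by 6 definitions, with 1 point per sample and lines for 95% exact binomial intervals of the deposited label, which cover counting error only. Both PP121 samples lie above both control samples for the deposited label, for the score above 0.2 and for both UMI limits, but not for the second scoring or for the listed UMIs after thinning.

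Median depth over all nuclei of a phase differed little, although G2M nuclei above the median score were deeper than those below it. The median UMIs per nucleus were 6754.5, 6668.5, 6274 and 6417 in G1 and 6854, 6462, 5913 and 6713.5 in G2M, higher in G2M in 2 of 4 samples. The mean difference was -42.9 UMIs ± 296 (SD, n = 4; exact sign-flip permutation p = 0.875, where the smallest possible is 0.125). The sums behind each sample ran from 868312 to 1753680 UMIs in G2M and from 2653742 to 4529236 in G1, so a gene at 0 was held to a lower limit in G1. In all, 59 cell barcodes occurred in more than 1 library, 1 of them within Progenitor 2.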

How the data were processed

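Droplet snRNA-seq libraries of hashtagged nuclei were processed by the authors with kallisto and bustools, and the submitters' notes also name Cell Ranger, Seurat 4.0.4 and GRCh38. The deposited counts are whole UMIs per gene and nucleus. The deposited S and G2M score of each nucleus, its class and its phase were used as given, and the deposited percent of mitochondrial and ribosomal counts described nuclei. Use of introns and strand is not stated in the sources used here.

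Samples were grouped by their titles, also for the control samples, whose deposited sample column holds other names. Counts were summed per sample, class and phase and tested with edgeR 4.0.16 (R 4.3.3) by glmQLFit and glmQLFTest, two-sided, with TMM and filterByExpr. CPM are TMM-scaled except in list sums and in the check of class markers, which use raw totals. On simulated data for G2M against G1 in Progenitor 2 (14418 genes), 99% of changes of 1 and 100% of changes of 2 (log2) were recovered, with 10 false calls. Changes were placed only in genes with high total counts, and every gene was given the same fixed spread. Recovery at low counts was not tested. Interactions came from the same tool. Spans were taken from GENCODE 29 and promoters from RefSeq. The replicate number is a day in the annotation and so pairs samples: across genes, same-numbered samples deviated together at 0.352 in G1 levels and 0.0525 in the phase difference.

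Named genes were the 12 largest rises and falls with an adjusted p under 0.05, at least 10 CPM and 1 direction in all 4 samples (5 each way, or the 3 smallest p, for other comparisons), and list members. Members, lists and tests were chosen with earlier results of these data known. Alternatives were DESeq2 1.42.0, other filters, depths, numbers of nuclei, blocks and phase calls, a 95th percentile limit for doublet candidates, and each sample left out. A second scoring (Seurat 5.3.0) and the UMI and score limits for shares were added after seeing the data. Values of some genes that the rule names are not reported here.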

Additional observations from a re-analysis of the deposited data

Results flagged for a closer look

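In 2 of 26 groups of 4 samples examined, the named rising and falling genes among them, 1 sample stood apart from the others. Chance alone sets 1 sample apart in about 1 in 20 groups. For KIF4A the gap between control replicate 2, whose log2 difference between G2M and G1 was 6.71, and the nearest sample took 0.923 of the whole range, and the other samples lay between 5.69 and 5.77. For PLXNA4 the same sample stood lowest, at -1.98 against -0.80 to -0.96 (0.858 of the range, with the nearest at -0.96). Control replicate 2 had the fewest G2M nuclei, 107, and the part of that in these values was not tested.

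The phase difference depended on the annotated day for 7 genes in the higher and 4 in the lower direction. The interaction was 1.62 for AC092957.1, 1.20 for RPL39, 1.04 for TPT1, 1.02 for APOLD1 and 0.94 for RPL41, and -2.17 for AL357507.1, -1.50 for CNTN4, -1.48 for SLC35F4 and -1.33 for ADAMTSL1, all on the log2 scale.

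Between the progenitor classes, 308 genes had a larger and 64 a smaller phase difference in Progenitor 2. The log2 interaction was 5.54 for PIF1, 5.09 for KIFC1, 4.60 for KIF18B, 4.27 for BUB1B and 4.03 for KIF4A. It was -4.19 for RAPGEF4-AS1, -3.46 for EDARADD, -2.90 for PDE7B, -2.51 for UBTD1 and -2.05 for AC120193.1. Median UMIs per nucleus were lower in Progenitor 1, at 4600 to 6088, and their part was not tested. G2M nuclei with a score above 0.4 were also fewer there, at 8 to 16 per sample against 34 to 67, and this was not tested either.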

How the results depend on the processing

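Against 852 genes higher and 612 lower, DESeq2 called 526 and 222, a fit with no filter on low counts 942 lower, nuclei thinned to 2000 UMIs 356 and 192, and G1 nuclei matched on UMIs 400 lower. G2M nuclei below the median score gave 9 and 26, and phases called anew from thinned UMIs of the listed genes 94 and 51. That last call left only 14 to 25 G1 nuclei per sample. With a replicate block in place of the sample block 534 were higher and 101 lower. The PP121 interaction had 15 and 5 with phase by replicate number added to the fit, where the sample stayed the block. Leaving out 1 sample gave 658 to 754 higher and 368 to 498 lower, the fewest without control replicate 1. Nuclei whose phase a second scoring returned, an alternative chosen after seeing the data, gave 872 and 631.

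G2M against S had 101 genes lower with DESeq2, 365 with no filter, and 267 to 464 higher and 81 to 173 lower with 1 sample left out, the fewest higher without control replicate 1 and the fewest lower without PP121 replicate 1. The PP121 interaction had 18 and 4 with no filter, and 2 to 20 and 0 to 4 with 1 sample left out, the most without PP121 replicate 2. The day interaction had 0 and 1 with DESeq2, 21 and 13 with no filter, 44 and 15 with phase by treatment added, and 4 to 45 and 1 to 15 with 1 sample left out, the most without PP121 replicate 2. The class interaction had 168 and 20 with DESeq2, 183 lower with no filter, 114 lower with at least 10 counts in every sum, and 142 to 204 and 22 to 57 with 1 sample left out, the fewest higher without PP121 replicate 1 and the fewest lower without control replicate 1. The cause was not tested, except that thinning and leaving out samples use fewer counts.

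The UMI difference was 276 with means in place of medians and -156 to 63.2 with 1 sample left out. The PP121 difference in the share of G2M nuclei was 5.44 to 10.4 percentage points with 1 sample left out, 7.90 within replicate numbers and 0.47 with phases from thinned UMIs.

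Of 168 named genes, only a part could be fitted in every alternative. Below the median score 4 kept their call, 84 kept the sign but no longer passed, and the sign turned in 17. These 17 were CENPK (-0.36), CENPI (-0.044), MIS18A (-0.080), CENPQ (-0.46), SKA2 (-0.090), NCAPG2 (-0.0020), STAG2 (-0.032), E2F7 (-0.15), ATAD5 (-0.023), RFC5 (-0.23), PRIM2 (-0.084), POLE2 (-0.19), DCX (0.029), SUV39H2 (-0.16), CCNF (-0.043), NDC1 (-0.090) and CEP192 (-0.13). With phases from thinned UMIs 37 kept their call, 98 kept the sign but no longer passed, and the sign turned in 7. These were AP003025.2 (0.17), MGAM (0.42), MGAT4C (0.39), BTG2 (-0.010), GAP43 (0.28), EBF3 (0.29) and NUP107 (-0.20). DESeq2 kept the call of 143 of the 168 and the replicate block that of 140. Few nuclei limit the G2M sums, and 4 samples limit every test.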
